A study of Mus musculus with 79 samples.

Results

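E0771 tumors were compared with metM-Wnt-liver tumors, all of them grown in obese mice that ate sulindac. The tumors were chosen by sample title as the arrays of the group DIO+Sulindac (DIOSul), which gave 8 E0771 and 7 metM-Wnt-liver arrays, or 15 of the 79 arrays of the series, with 1 array per mouse. The hosts were female C57BL/6J mice that started a diet with 60 kcal% fat at 8 to 9 weeks of age, ate it for 15 weeks, and then ate the same diet with 140 ppm sulindac for 5 weeks before 20000 cells were placed in mammary fat pad 4. Tumors were taken at 33 to 34 weeks of age. Obesity, sulindac, sex and strain were therefore shared by both groups, and the injected cell line set them apart. The methods state that E0771 cells carried a GFP-NanoLUC reporter and name none for metM-Wnt-liver cells. Euthanasia was set for each line by a tumor size limit, so time since injection could also differ by line. Neither can be told apart from the line itself. E0771 cells come from a mammary carcinoma of the mouse that lacks hormone receptors (triple-negative), and metM-Wnt-liver is a subclone that was isolated from a liver lesion of M-Wnt cells, a lineage begun in MMTV-Wnt1 transgenic mice, where a viral promoter active in the mammary gland drives Wnt1. Each is a single line, so the 15 tumors are separate hosts but not separate cancers, and line and any batch of handling cannot be told apart. The other hosts used for comparison were Con mice (10 kcal% fat), ConSul mice (the same with sulindac) and DIO mice (60 kcal% fat without sulindac).

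Sulindac blocks the cyclooxygenases, which turn arachidonic acid into the precursor of all prostaglandins. Prostaglandin E2, made from that precursor by prostaglandin E synthases, acts on 4 receptors on cancer, stromal and immune cells and is known as a brake on T cells and natural killer cells in tumors. Triple-negative mammary tumors lack hormone receptors and range from epithelial to mesenchymal states, and a whole-tumor array reads the cancer cells together with every immune, stromal and neighbouring tissue cell cut out with them. In such bulk samples fewer cells of a type and less RNA per cell cannot be told apart.

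All values are array signals on the log2 scale, on which 1 unit is a 2-fold change, and differences are E0771 minus metM-Wnt-liver with the standard error of the limma fit. The 15 arrays had medians of 6.35 to 6.65 and correlated at 0.974 to 0.989 among E0771 tumors, 0.976 to 0.99 among metM-Wnt-liver tumors and 0.938 to 0.953 between the lines. The lowest value on an array was 2.44 to 2.66 in E0771 and 0.73 to 1.91 in metM-Wnt-liver tumors. Of the 15 arrays, 6 were high in genes of other tissues: E0771 replicates 2 and 6 and metM-Wnt-liver replicates 3 and 4 in skeletal muscle genes, and E0771 replicate 3 and metM-Wnt-liver replicates 4 and 7 in skin keratinocyte genes. The metM-Wnt-liver ConSul arrays (4) stood apart by a wider spread of values (99th percentile of 16.40 to 16.48 against 16.13 to 16.34 in the other metM-Wnt-liver arrays) and by adipocyte RNA, and the comparison with ConSul hosts cannot be made without them. A mesenchymal marker was high in both lines, and an epithelial one had medians near or below those of the arrays. Vimentin (Vim), an intermediate filament of mesenchymal cells, lay at 17.8 to 18.1 in E0771 and 17.1 to 17.7 in metM-Wnt-liver tumors. E-cadherin (Cdh1), the adhesion protein of epithelia, had medians of 5.50 and 6.49, and reached 8.77 in E0771 replicate 3. Other mesenchymal and epithelial genes, which went in both directions, are given below. Wnt1, whose transgene gave rise to the M-Wnt lineage, lay near the bottom of the scale in both lines, at 3.22 to 3.94 and 2.97 to 3.39 (difference 0.25 ± 0.122, adjusted p = 0.0824).

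On the common scale set by SST-RMA, close to equal numbers of genes were called in each direction. This balance depends on the scaling, since median centring gave 5360 higher and 3573 lower. Of 19505 genes, 9166 (47.0%) were called at a Benjamini-Hochberg adjusted p under 0.05. They split into 4787 genes (24.5%) higher and 4379 (22.5%) lower in E0771, and the median difference over all genes was -0.01. Among called genes, 3699 (19.0%) differed by at least 1, with 1958 (10%) higher and 1741 (8.93%) lower in E0771. The ranges of the lines did not overlap at 4283 genes (22%), of which 4272 (21.9%) were also called. A difference of 5 or more was reached by 56 genes higher and 55 genes lower in E0771. Without the 6 arrays rich in muscle or skin RNA, and 6 such arrays of other groups, 7071 genes were called.

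The largest difference of all belonged to Gm364, an X-linked gene. It lay at 14.4 to 14.8 (median 14.7) in E0771 and at 3.74 to 4.69 (median 4.12) in metM-Wnt-liver tumors, a difference of 10.49 ± 0.139 (adjusted p = 9.89e-49). Ano1, a calcium-activated chloride channel that is amplified in several carcinomas, lay at 13.9 to 14.6 in E0771 and 5.36 to 9.11 in metM-Wnt-liver tumors (7.56 ± 0.840, adjusted p = 9.09e-11). Both genes separated the lines without overlap, Gm364 with almost no spread and Ano1 with a wide one in metM-Wnt-liver tumors. Crmp1, a cytoskeletal protein of growing axons, differed by 7.30 ± 0.207, and Acsl6, which activates long-chain fatty acids, by 7.15 ± 0.178. Epiregulin (Ereg), a ligand of the epidermal growth factor receptor, was at 11.4 to 13.1 in E0771 and 4.50 to 5.95 in metM-Wnt-liver tumors (6.92 ± 0.258, adjusted p = 4.04e-28). Tex11, a meiosis gene of the X chromosome, was at 10.5 to 11.2 against 3.58 to 4.37 (7.03 ± 0.177), and the X-linked Gm773 and 4930550L24Rik differed by 7.23 ± 0.260 and 7.11 ± 0.138. Thus 4 of the 10 leading genes of E0771 lay on the X chromosome. The adipocyte hormone adiponectin (Adipoq, 6.89 ± 1.41) and the prostaglandin synthase gene Ptges (6.73 ± 0.596) completed the 10.

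In the other direction the metM-Wnt-liver tumors were led by Dynap, a membrane protein gene, at 10.6 to 14.2 (median 13.8) against 3.40 to 4.97 (median 4.16) in E0771 (-9.21 ± 0.350, adjusted p = 8.12e-28). Crabp2, which carries retinoic acid to its nuclear receptor, lay at 13.9 to 15.6 against 4.76 to 6.2 (-9.17 ± 0.260). Mme, the surface peptidase neprilysin (CD10) of myoepithelial and stromal cells, lay at 14.8 to 15.9 against 5.40 to 7.38 (-8.90 ± 0.430). At each of these 3 genes every metM-Wnt-liver tumor lay above every E0771 tumor, and Mme reached above the array median in at least 1 E0771 tumor. The endothelial and tumor proteoglycan gene Esm1 (-7.89 ± 0.404), the RNA-binding protein gene Khdrbs3 (-7.83 ± 0.230) and the vessel-stabilising ligand angiopoietin 1 (Angpt1, -7.82 ± 0.392) followed. The cell adhesion genes Pcdh18 (-7.33 ± 0.295) and Ncam1 (-7.32 ± 0.294), the kinase gene Prkg2 (-7.04 ± 0.371) and the bone morphogenetic protein antagonist gremlin 1 (Grem1, -6.84 ± 0.492) closed the leading 10. These 20 genes were chosen for the absence of overlap, so the gaps in the plot of these genes by array follow from the choice, and for Adipoq the gap is narrow, from 8.72 to 9.04.

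**Figure D1:**
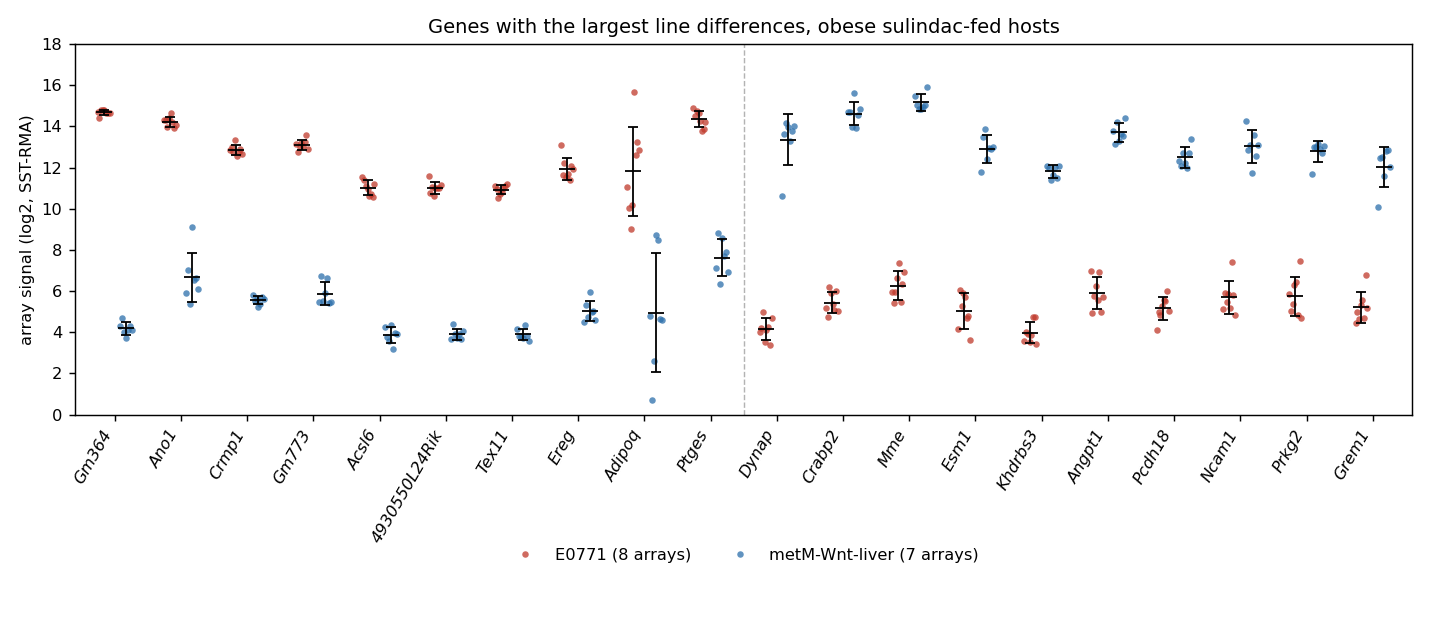
Array signal (log2) of the 10 genes with the largest difference in each direction, in 8 E0771 (red) and 7 metM-Wnt-liver (blue) DIOSul tumors, with points for arrays and bars for mean and SD. Gm364 lies at 14.4 to 14.8 in E0771 and 3.74 to 4.69 in metM-Wnt-liver tumors, and Adipoq shows the widest spread of the 20 genes in both lines.

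A stricter rule asked which genes were silent in one line and strong in the other. At or below the 25th percentile of its array in every tumor of one line and at or above the 75th in every tumor of the other, 0 genes qualified. With the array median in place of the 25th percentile, a limit chosen after seeing the data, 6 genes were on in E0771 and 7 in metM-Wnt-liver tumors. The former were Gm364, Gm773, Gm15091 (6.19 ± 0.376), Crmp1, Ereg and Zfp600 (5.93 ± 0.238), of which 3 lie on the X chromosome, which carries 4.09% of all genes measured. The latter were Crabp2, Esm1, Khdrbs3, Pcdh18, Matn2, a matrilin of the matrix (-6.34 ± 0.261), Irx2, a homeobox gene (-5.86 ± 0.282), and Ssbp2, a DNA-binding protein gene (-5.49 ± 0.253). Of these 7 genes, Esm1, Irx2 and Ssbp2 are on chromosome 13, Crabp2 and Pcdh18 on chromosome 3, and Khdrbs3 and Matn2 on chromosome 15, which carries 3.67% of all genes. Across the arrays of all 4 hosts, 4 genes of each set stayed above the array median in all 28 E0771 or 25 metM-Wnt-liver arrays and below it in all arrays of the other line. In DIOSul tumors of metM-Wnt-lung, the sister line from a lung lesion, Gm364 had a mean of 3.96 and Zfp600 of 6.03, while Crmp1 had 7.83 and Gm773 8.37. The files give no detection call per gene, so values at the low end of the scale are given as measured, without a statement that the RNA was absent.

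The inducible target of sulindac and the enzyme after it differed between the lines in opposite directions. Ptgs2, the inducible cyclooxygenase, lay at 6.86 to 9.46 (median 8.01) in E0771 and at 11.4 to 14.2 (median 13.4) in metM-Wnt-liver tumors, a difference of -5.06 ± 0.537 (adjusted p = 2.37e-11). Ptges, the inducible prostaglandin E synthase that acts just after it, lay at 13.8 to 14.9 (median 14.4) in E0771 and at 6.35 to 8.83 (median 7.69) in metM-Wnt-liver tumors, a difference of 6.73 ± 0.596 (adjusted p = 8.72e-14). Thus the line rich in the drug's target was the line poor in the next enzyme, and neither gene's ranges overlapped. Pla2g4a, the phospholipase that frees arachidonic acid, went with Ptgs2 (10.1 to 11.46 against 11.8 to 13.6, -1.91 ± 0.236, adjusted p = 1.55e-09). Hpgd, which breaks prostaglandin E2 down, lay at 6.25 to 9.11 in E0771 and 3.64 to 6.79 in metM-Wnt-liver tumors (3.11 ± 0.424, adjusted p = 1.95e-08), with overlapping ranges. Abcc4, the pump that exports prostaglandins, was at 11.99 to 13.0 against 9.71 to 10.9 (2.13 ± 0.2, adjusted p = 5.46e-13). Of 13 measured genes of prostaglandin synthesis and breakdown, 5 were higher and 4 lower in E0771 (69.2% called, beside 47.0% of all genes). Ptgs1 was not analysed here. Of 9 prostanoid receptors, 2 were higher and 5 lower in E0771 (77.8% called), with a median of -0.59, beside a median of -0.01 over all genes. The prostaglandin E2 receptors Ptger2 (5.01 to 5.95 against 6.85 to 8.73, -2.13 ± 0.230) and Ptger4 (7.25 to 8.58 against 8.70 to 9.27, -1.22 ± 0.246, adjusted p = 4.83e-05) were both lower in E0771 without overlap. The difference of Ptgs2 was -4.54 in DIO, -4.48 in ConSul and -5.19 in Con hosts, and that of Ptges 6.16, 4.36 and 5.46, so the opposite order of these genes was present in every host. In metM-Wnt-lung DIOSul tumors Ptgs2 had a mean of 13.2 and Ptges of 12.5, both high.

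Hox genes, which record position along the body axis and are often kept by cell lines, gave each line its own pattern. Of 33 measured, 14 were higher and 7 lower in E0771 (63.6% called, beside 47.0% of all genes). Ranges did not overlap at 12 of the higher and 4 of the lower genes, beside 22% of all genes. The HoxD genes stood out: Hoxd10 lay at 9.13 to 10.3 in E0771 and 3.39 to 4.55 in metM-Wnt-liver tumors (5.81 ± 0.234, adjusted p = 9.13e-27), with Hoxd9 at 4.18 ± 0.192 and Hoxd8 at 4.13 ± 0.214. Their neighbours Hoxd11, Hoxd12 and Hoxd13 gave -0.39, -0.08 and 0.05. HoxC genes followed, with Hoxc10 at 3.76 ± 0.226 and Hoxc6 at 2.69 ± 0.220. Within the HoxA cluster the direction turned: Hoxa10 was higher in E0771 (7.78 to 9.07 against 3.92 to 5.45, 3.98 ± 0.308), while Hoxa5 was lower (4.79 to 5.52 against 5.77 to 7.30, -1.52 ± 0.221). Hoxb2 was lower in E0771 as well (5.35 to 6.42 against 8.12 to 9.25, -2.72 ± 0.274).

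**Figure D2:**
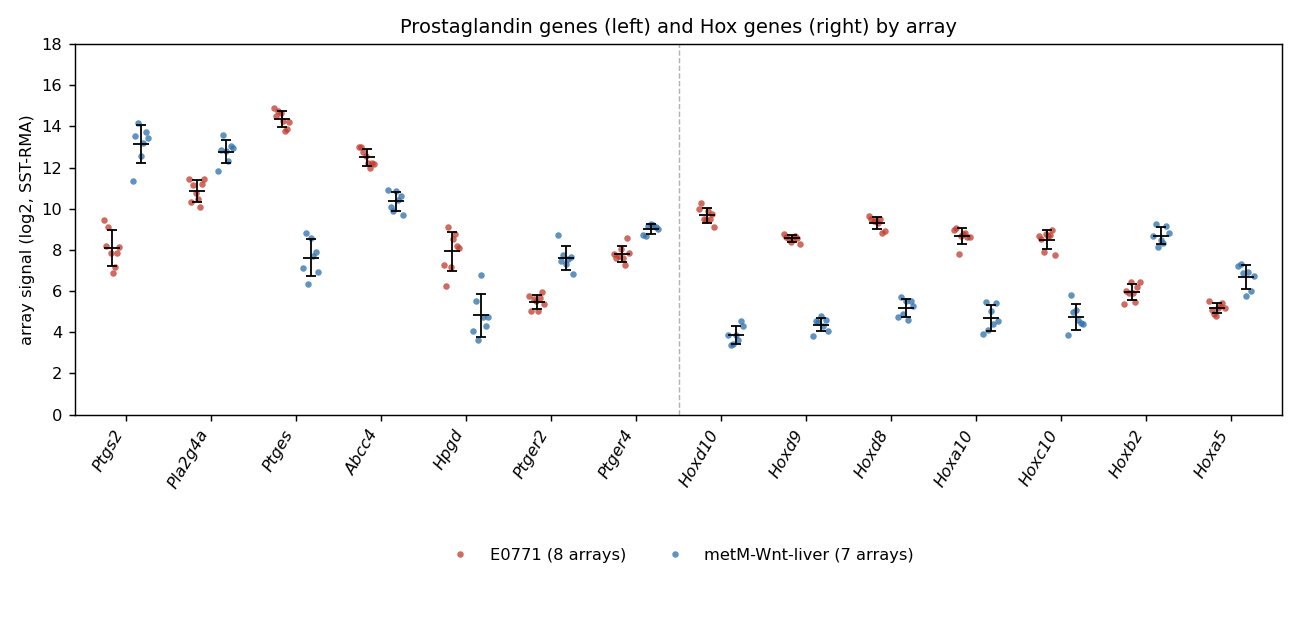
Array signal (log2) of 7 prostaglandin genes (left of the dashed line) and 7 Hox genes (right) in 8 E0771 (red) and 7 metM-Wnt-liver (blue) DIOSul tumors, with points for arrays and bars for mean and SD. Ptgs2 (6.86 to 9.46 against 11.4 to 14.2) and Ptges (13.8 to 14.9 against 6.35 to 8.83) differ in opposite directions, and Hoxd8, Hoxd9, Hoxd10, Hoxa10 and Hoxc10 are high in E0771 alone.

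Genes of Wnt signaling, the pathway that started the M-Wnt tumors, were called about as often as all genes. Of 18 Wnt ligands 4 were higher and 5 lower in E0771, and of 38 receptors and feedback genes 4 were higher and 12 lower (medians -0.02 and -0.29), which is 50% and 42.1% called beside 47.0% of all genes. The feedback target Axin2 lay at 5.11 to 6.76 and 5.44 to 6.73 (-0.15 ± 0.275, adjusted p = 0.685). Lef1, a transcription factor of the pathway, was lower in E0771 (3.70 to 5.36 against 5.54 to 7.16, -1.74 ± 0.227), as was the receptor Fzd7 (5.92 to 7.59 against 9.45 to 10.4, -3.41 ± 0.309). Among the genes higher in E0771 were inhibitors of the pathway: Dkk2 (8.52 to 11.96 against 3.80 to 5.19, 5.87 ± 0.443), Apcdd1 (10.9 to 12.8 against 6.02 to 7.95, 4.92 ± 0.443) and Znrf3, which removes Wnt receptors from the membrane (1.90 ± 0.158). The other ligands Wnt10a (-1.44 ± 0.261) and Wnt11 (-0.65 ± 0.183) were lower in E0771 with no overlap.

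The lines held different genes of the mesenchymal state. Of 22 genes of the mesenchymal state and epithelial-mesenchymal transition, 4 were higher and 12 lower in E0771, a share called of 72.7%. E0771 held the transcription factors Prrx1 (14 to 14.8 against 7.19 to 10.8, 5.94 ± 0.411) and Twist2 (11.04 to 12 against 8.65 to 9.38, 2.39 ± 0.223). The metM-Wnt-liver tumors held N-cadherin (Cdh2, 10.4 to 11.3 against 4.85 to 6.17, -5.03 ± 0.254), Snai2 (11.2 to 13.1 against 6.33 to 8.54, -4.52 ± 0.481), fibronectin (Fn1, -3.05 ± 0.491) and the transforming growth factor beta receptor Tgfbr2 (-2.35 ± 0.217). Of 34 epithelial genes 9 were higher and 4 lower in E0771, a called share (38.2%) below that of all genes (47.0%). The mean of the list, with each gene centred on its mean over the 15 arrays, moved with skin RNA: it was 1.14 in E0771 replicate 3 and 0.85 in metM-Wnt-liver replicate 4, both rich in keratinocyte genes, and at most 0.06 in the other arrays. Without the arrays rich in muscle or skin RNA 14 of the 34 genes were called. The tight junction gene occludin (Ocln) was the member without overlap, at 8.49 to 9.46 against 4.67 to 6.26 (3.75 ± 0.208, adjusted p = 3.46e-21). Epcam was higher (1.92 ± 0.537) and claudin 1 (Cldn1) lower (-3.14 ± 0.445) in E0771, with overlapping ranges. The growth factor receptor Erbb2 (9.08 to 9.69 against 7.34 to 8.10, 1.61 ± 0.213) and the mammary stem cell antigen Procr (10.3 to 11.02 against 6.89 to 8.30, 2.74 ± 0.248) were higher in E0771, and the laminin receptor subunit Itgb4 was lower (-1.87 ± 0.247).

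Feedback genes of the RAS-MAPK pathway were mostly higher in E0771. Of 16 measured, 10 were higher and 2 lower (75% called, beside 47.0% of all genes), with a median of 1.01. Fosl1, a target of the pathway in the AP-1 family, was at 13.6 to 14.4 against 10.2 to 11.8 (2.83 ± 0.290), and the phosphatase gene Dusp5 at 11.9 to 12.8 against 8.95 to 10.1 (2.98 ± 0.218). The inhibitor Spry1 went the other way (5.17 to 6.72 against 9 to 11.8, -4.64 ± 0.402). Of 24 p53 targets and cell cycle inhibitors, 10 were lower and 5 higher in E0771 (62.5% called). Trp53inp1 (6.38 to 8.35 against 10.4 to 12.7, -4.15 ± 0.361), Eda2r (-3.57 ± 0.354) and Sesn1 (-2.34 ± 0.332), which p53 induces, were lower without overlap.

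Most lists of metabolism and the cell cycle were called at a share near that of all genes (24.5% higher, 22.5% lower and 47.0% in all), from 39.4% for oxidative phosphorylation to 61.9% for the NRF2 group, and are described by their members. Of 27 genes of glycolysis and the response to low oxygen, 9 were higher and 6 lower in E0771. Adrenomedullin (Adm), a vasodilator peptide, lay at 11.3 to 13.8 against 6.59 to 8.82 (5.71 ± 0.420), the carbonic anhydrase Car12 at 7.21 to 9.08 against 3.13 to 5.75 (4.05 ± 0.341), and the lactate exporter Slc16a3 at 15.7 to 16.3 against 10.6 to 13.4 (3.76 ± 0.276). Bnip3, a mitophagy gene induced by low oxygen, was lower in E0771 (11.49 to 12.3 against 13.2 to 15.3, -2.58 ± 0.353). The list therefore held called members of opposite direction. Of 18 genes of fatty acid and cholesterol synthesis, 5 were higher and 4 lower, led by fatty acid synthase (Fasn, 11.49 to 12.3 against 8.64 to 10.5, 2.34 ± 0.352) and the elongase Elovl6 (1.66 ± 0.269). Of 21 genes of the NRF2 and glutathione group 9 were higher and 4 lower, among them Gstt1 (2.46 ± 0.347) and Srxn1 (2.14 ± 0.201), while Nqo1 gave -0.26 ± 0.318 (adjusted p = 0.528). Oxidative phosphorylation was close to even, with 8 of 33 higher and 5 lower. Ndufa4 was higher (1.3 ± 0.199) and the import receptor Tomm22 lower (-0.75 ± 0.141), and Romo1 (-0.15, adjusted p = 0.474) and Tomm7 (0.20, adjusted p = 0.270) were not called. Of 29 genes of the G2/M phase 8 were higher and 7 lower, with the proliferation antigen Mki67 lower in E0771 (11.2 to 12.5 against 12.3 to 14.7, -1.80 ± 0.342) and Top2a at -0.09 ± 0.241 (adjusted p = 0.780). Of 27 replication genes 10 were higher and 5 lower, led by the licensing factor Cdt1 (2.03 ± 0.230).

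Immune genes were lower in E0771 for antigen presentation and lymphocytes and not, in DIOSul hosts, for type I interferon. Among all genes 24.5% were called higher and 22.5% lower. All 10 measured genes of MHC class II and its loading were lower in E0771, with a median of -1.57, and 7 were called without the arrays rich in muscle or skin RNA. The loading factor H2-DMa lay at 8.90 to 10.7 in E0771 and 11.3 to 12.9 in metM-Wnt-liver tumors (-2.51 ± 0.362), and the master regulator Ciita at 6.47 to 8.38 against 8.58 to 10.1 (-1.95 ± 0.373, adjusted p = 1.92e-05). The class II chains H2-Ab1 (13.5 to 15.6 against 15.1 to 16.6, -1.44 ± 0.435) and H2-Aa (-1.54 ± 0.474) had overlapping ranges, and without those arrays they had adjusted p = 0.0733 and 0.0987. Of 18 class I genes 11 were lower and 1 higher, with H2-K1 at 16.1 to 16.5 against 16.9 to 17.3 (-0.84 ± 0.0937) and H2-Q4 at -2.65 ± 0.199. Of 17 genes of the interferon gamma response 11 were lower and 1 higher (6 called without those arrays), and the receptor subunits Ifngr1 (-1.69 ± 0.198) and Ifngr2 (-0.98 ± 0.119) were both lower without overlap. In the type I interferon response 7 of 33 genes were higher and 1 lower, with a median of 0.06. The share called, 24.2%, was below the 47.0% of all genes. The counts were 2 higher and 8 lower in both DIO and ConSul hosts, and 7 and 2 in Con hosts. Rsad2, an antiviral enzyme, was higher (1.65 ± 0.238) and Irf7 not called (-0.35 ± 0.287, adjusted p = 0.322).

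Markers of cytotoxic and natural killer cells had the lowest median of the leukocyte lists (-2.06), with 13 of 15 lower in E0771, beside 22.5% of all genes. The granzyme gene Gzmk lay at 3.90 to 6.36 against 6.5 to 10.02 (-3.44 ± 0.425, adjusted p = 1.69e-09), and Nkg7 (-2.77 ± 0.421) and interferon gamma itself (Ifng, -2.52 ± 0.515) were lower with overlap. Gzmb was not called (8.60 to 11.47 against 9.27 to 13.3, -1.06 ± 0.475, adjusted p = 0.0625). Of 15 T cell genes 10 were lower, Cd8a among them (7.03 to 10.4 against 9.14 to 12.3, -2.70 ± 0.582), whereas Cd3e gave -1.02 ± 0.486 (adjusted p = 0.0796). Of 20 macrophage genes 11 were lower and 2 higher. The lipid receptor Trem2 (7.79 to 9.39 against 10.9 to 11.98, -2.90 ± 0.290), the growth factor receptor Csf1r (11.9 to 13.0 against 13.7 to 14.6, -1.87 ± 0.244) and the efferocytosis receptor Mertk (-2.24 ± 0.334) were lower, and Cd163, a haemoglobin scavenger receptor, was higher (2.54 ± 0.725). The pan-leukocyte gene Ptprc (CD45) lay at 13.8 to 14.97 against 14.4 to 15.2 (-0.57 ± 0.295, adjusted p = 0.111). Of 14 neutrophil genes 4 were higher and 1 lower (35.7% called, beside 47.0% of all genes), with interleukin 1 beta (Il1b) at 10.5 to 12.6 against 5.40 to 8.62 (4.13 ± 0.578). The mean of the centred list was 1.02, 2.03 and 1.31 in E0771 replicates 1, 2 and 3. It was -0.25 to -0.09 in the other E0771 tumors, within the metM-Wnt-liver range of -1.06 to 0.12. Of 16 dendritic cell genes 3 were higher and 5 lower, a called share (50%) near that of all genes, with a list median of -0.09. Among them Xcr1, a receptor of cross-presenting dendritic cells, was lower (-2.47 ± 0.389). Of 18 checkpoint genes 9 were lower and 5 higher, with the T cell receptor gene Pdcd1 lower (-1.98 ± 0.452) and the ligand Pvr of tumor cells higher (12.2 to 13.5 against 9.82 to 11.6, 1.79 ± 0.298). Of 29 chemokines and growth factors 6 were lower and 4 higher, a called share (34.5%) below that of all genes. Lif, a cytokine of the interleukin 6 family, was at 4.15 to 5.90 in E0771 and 8.78 to 10.5 in metM-Wnt-liver tumors (-4.76 ± 0.454), and Cxcl12 at -2.02 ± 0.351.

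**Figure D3:**
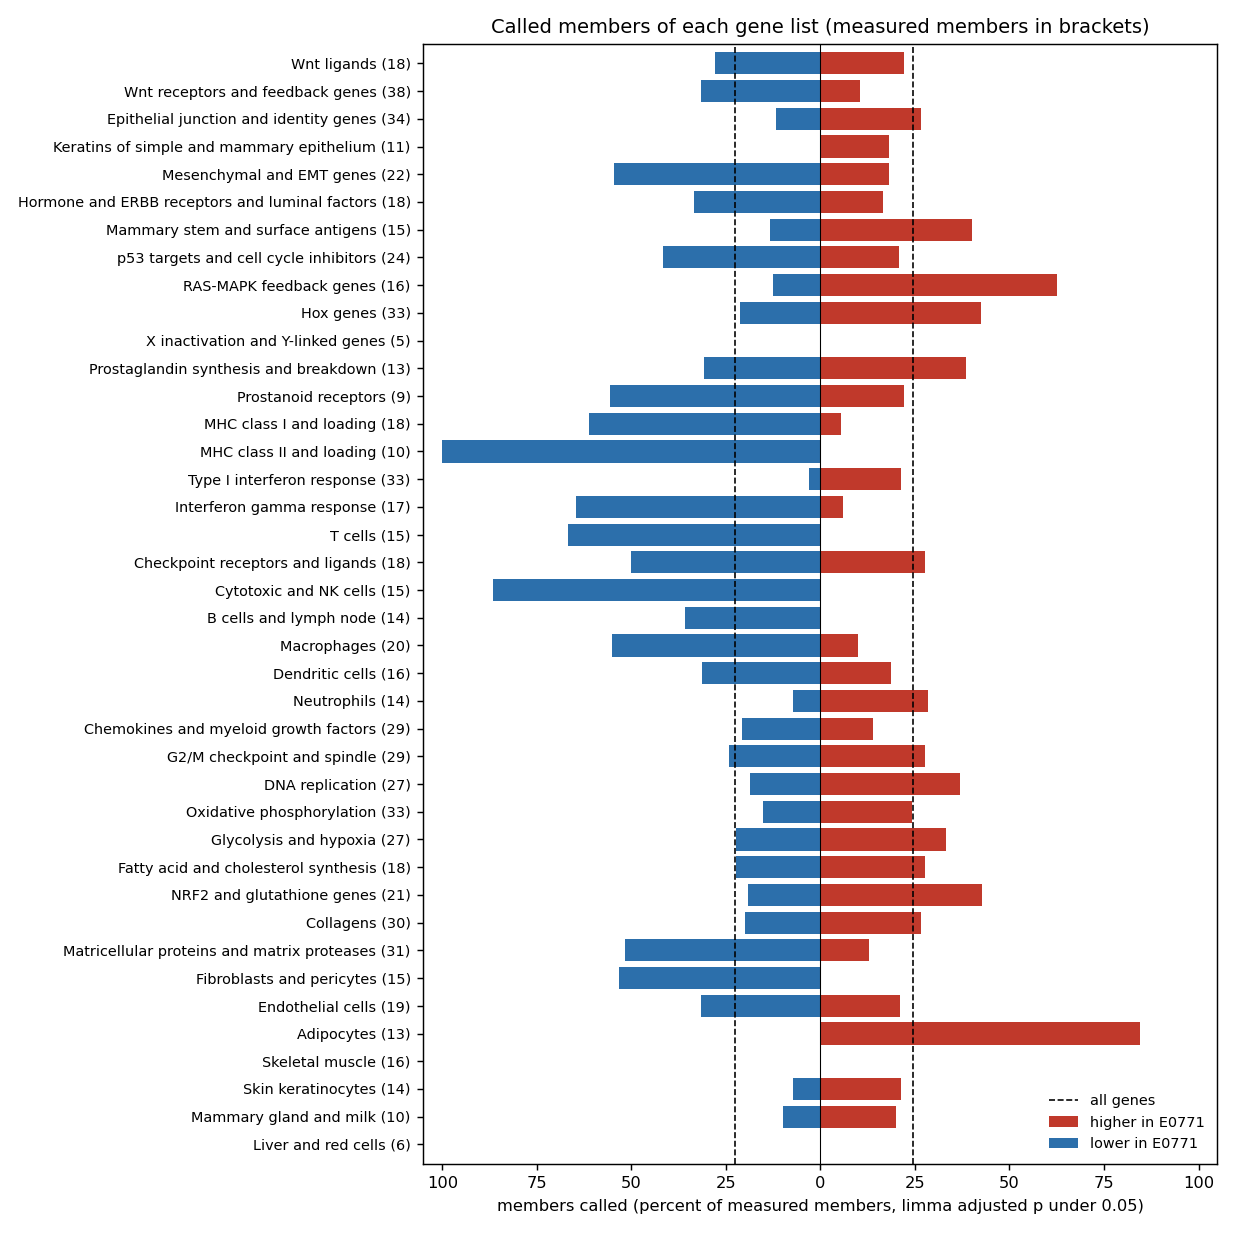
Share of the measured members of each of 40 gene lists called higher (red, right) and lower (blue, left) in E0771, in percent, with dashed lines at 24.5% and 22.5% for all genes. All 10 MHC class II genes are lower, 84.6% of adipocyte genes are higher, and skeletal muscle genes have 0 called.

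Stromal genes differed by group. Of 31 matricellular proteins and matrix proteases 16 were lower and 4 higher in E0771, beside 22.5% lower and 24.5% higher among all genes. The collagen cross-linking enzymes Loxl3 (9.28 to 10.4 against 14.2 to 15.4, -4.96 ± 0.259) and Lox (-3.00 ± 0.625), the growth factor Ccn2 (-3.98 ± 0.433) and the protease inhibitor Timp1 (-2.72 ± 0.254) were lower, and the macrophage elastase Mmp12 was higher (3.44 ± 0.811). Collagens, with 8 of 30 higher and 6 lower, were called at the share of all genes (46.7% beside 47.0%). Col1a1, the main fibrillar collagen, gave -0.53 ± 0.562 (adjusted p = 0.464), Col8a1 -3.58 ± 0.314 and Col5a3 2.69 ± 0.216. Of 15 fibroblast and pericyte genes 8 were lower and 0 higher, led by Cd34 (8.76 to 10.7 against 13.8 to 15.3, -5.03 ± 0.293). Of 19 endothelial genes 4 were higher and 6 lower (52.6% called, also near that share), with Pecam1 at -0.38 ± 0.233 (adjusted p = 0.176).

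Adipocyte genes were the reverse of the lymphocyte genes. Of 13 measured, 11 were higher in E0771 and 0 lower (84.6% called, beside 47.0% of all genes), with a median of 3.41. Without the arrays rich in muscle or skin RNA 11 were called. Adipoq lay at 9.04, 11.8 and 15.7 (lowest, median and highest) in E0771 and at 0.73, 4.63 and 8.72 in metM-Wnt-liver tumors, and lipoprotein lipase (Lpl) at 10.98, 12.9 and 13.3 against 4.48, 6.35 and 8.23 (6.08 ± 0.674, adjusted p = 8.71e-11). The lipid droplet gene Cidec gave 5.30 ± 0.986. The mean of the list, with each gene centred on its mean over the 15 arrays, was 0.71 to 3.09 in the 8 E0771 and -2.95 to -0.24 in the 7 metM-Wnt-liver tumors. With the adipocyte and muscle lists as covariates 9169 genes were called. Those scores were centred on the mean of each line, so they could not take out a gap between the lines. The part of adipocyte RNA in the line difference was not tested. Skeletal muscle genes, with 0 of 16 called, ranged from -2.23 to 6.06 in E0771 and from -2.17 to 5.34 in metM-Wnt-liver tumors on the same scale and so varied within both lines.

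Some immune genes differed less between the lines in obese hosts with sulindac than without it, and others did not. Whether the line difference in DIOSul hosts differed from that in DIO hosts was asked gene by gene, and 110 genes (0.564%) were called, 83 (0.426%) with a change above 0 and 27 (0.138%) below. At an unadjusted p under 0.05 there were 2106 genes (10.8%). In 72 of the 83 genes, the line difference lay nearer to 0 in DIOSul than in DIO hosts. All 83 had a higher mean in E0771 DIOSul than in E0771 DIO tumors, while 42 had a lower mean in metM-Wnt-liver DIOSul than in metM-Wnt-liver DIO tumors. These counts use the group means that selected the genes, so they follow in part from the selection and were not tested. Among the immune lists, 5 of 20 macrophage genes, 3 of 10 of MHC class II and 1 of 15 T cell genes were called above 0, as was 1 each of the checkpoint and chemokine lists. The limma test called 0 genes in the other immune lists, where an unadjusted p under 0.05 was found at 5 of 18 MHC class I, 5 of 33 type I interferon, 8 of 17 interferon gamma, 2 of 15 cytotoxic, 3 of 14 B cell, 6 of 16 dendritic cell and 4 of 14 neutrophil genes. These unadjusted counts take either direction. The median change was -0.80 over the neutrophil and -0.15 over the cytotoxic list. Over the others it ran from 0.17 (MHC class I) to 0.70 (interferon gamma). The median difference of the neutrophil list was 2.16 in DIO and 0.68 in DIOSul hosts, a shift that was not tested. That of the cytotoxic list was -1.75 in DIO and -2.06 in DIOSul hosts. H2-Ab1 had means of 10.7 in DIO, 13.6 in ConSul, 13.6 in Con and 14.5 in DIOSul hosts in E0771 and 14.9, 16.7, 15.6 and 15.9 in metM-Wnt-liver tumors, which took the difference from -4.16 in DIO to -1.44 in DIOSul hosts (change 2.72 ± 0.615, adjusted p = 0.0213). In E0771 the DIO tumors were thus the group with the lowest H2-Ab1. Cd3e, a subunit of the T cell receptor complex, had means of 6.33 in DIO and 9.45 in DIOSul E0771 tumors and 10.2 and 10.5 in metM-Wnt-liver tumors (change 2.89 ± 0.688, adjusted p = 0.0306). Cd72, a receptor of B cells and macrophages, changed by 2.67 ± 0.453 (adjusted p = 0.00293), and its difference of -0.12 in DIOSul hosts was not called (adjusted p = 0.781). Cd300e, an activating receptor of monocytes, had the largest change (3.27 ± 0.662, adjusted p = 0.0073), with means of 10.2 and 12.5 in E0771 and 9.56 and 8.51 in metM-Wnt-liver tumors, so that its difference widened from 0.69 to 3.96. The macrophage antigen Adgre1 changed by 1.28 ± 0.308 (adjusted p = 0.0329) and H2-Aa by 2.71 ± 0.670 (adjusted p = 0.0396).

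Of the 27 genes with a change below 0, all had a lower mean in E0771 DIOSul than in E0771 DIO tumors. That too follows in part from their selection by the same means. Ereg had means of 13.3 in DIO and 11.9 in DIOSul E0771 tumors and 4.59 and 5.03 in metM-Wnt-liver tumors (change -1.77 ± 0.365, adjusted p = 0.00931), so the epiregulin gap, though among the largest in the data, was smaller under sulindac. Gramd3 changed by -1.99 ± 0.346 (adjusted p = 0.00293), and Gsg1, the inflammatory caspase gene Casp12 and the neuropeptide gene Qrfp by -1.32, -1.32 and -1.3. Without the 12 arrays rich in muscle or skin RNA 10 genes were called. All 110 genes kept their direction there, with a median size of 1.40 in place of 1.44, and Cd72 and Gramd3 kept adjusted p = 0.0426 each, while H2-Ab1 and Cd3e had 0.134 and 0.126. With a leukocyte score as a covariate 37 genes were called, of which 22 were among the 110, and the median size of the 110 was 1.13 with every direction kept.

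**Figure D4:**
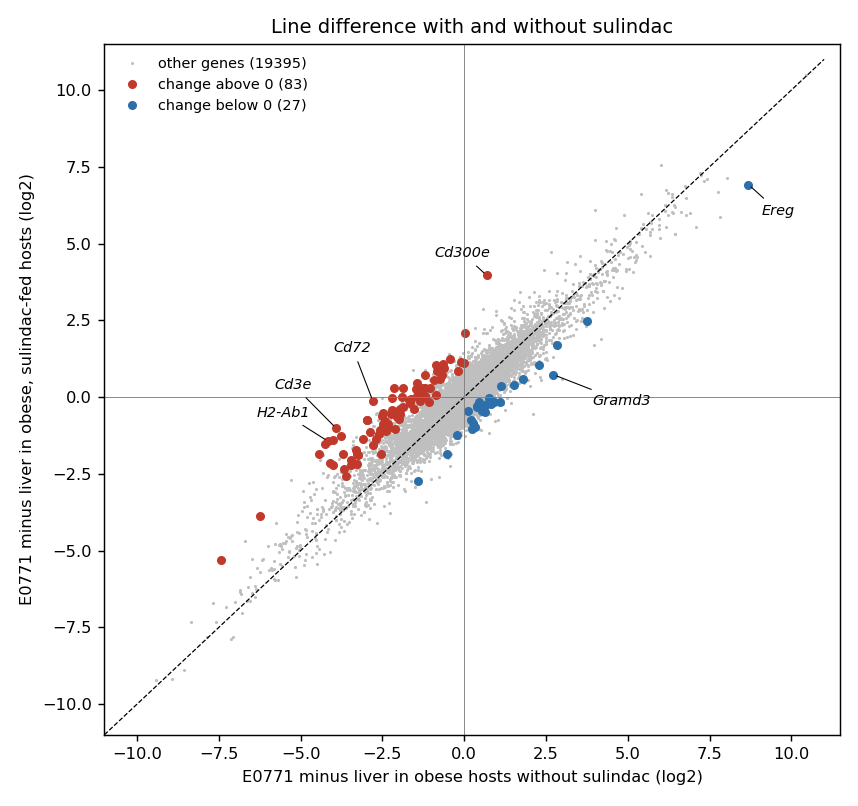
Difference between E0771 and metM-Wnt-liver (log2) in obese hosts without sulindac (x axis) and with it (y axis), with 1 point per gene and the line of equal difference dashed. The 83 genes with a change above 0 (red) lie above that line and the 27 with a change below 0 (blue) lie under it, as the test selects them, and H2-Ab1 moves from -4.16 to -1.44.

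The difference in DIOSul hosts was also set against that in the lean hosts. Against ConSul hosts 1347 genes (6.91%) were called, 726 (3.72%) above and 621 (3.18%) below 0, and 4336 (22.2%) at an unadjusted p under 0.05. That comparison rests on the 4 metM-Wnt-liver ConSul arrays that stood apart. Adipocyte genes led it, with 10 of 13 called above 0. Adipoq had a mean of 13.4 in those 4 tumors against 4.94 in metM-Wnt-liver DIOSul tumors, and 12.4 and 11.8 in E0771 (change 7.92 ± 2.26, adjusted p = 0.0247). Nnat, a membrane proteolipid gene of brain and fat, followed the same course (7.70 against 1.87, and 7.67 and 8.14 in E0771, change 6.30 ± 0.858), as did Cidec (6.02 ± 1.58) and the synuclein gene Sncg (5.23 ± 1.24). Below 0 lay the endocytosis gene Sh3gl3 (-4.63 ± 0.759), osteomodulin (Omd, -4.22 ± 0.804), the protease Mmp16 (-3.60 ± 0.723), Dppa2 (-2.92 ± 0.752) and the clock gene Per1 (-2.82 ± 0.690). With adipocyte and muscle scores as covariates 473 genes were called, and without the arrays rich in muscle or skin RNA 309. Against untreated lean Con hosts 0 genes (0.0%) were called by limma, 0 (0.0%) above and 0 (0.0%) below, although 1512 (7.75%) had an unadjusted p under 0.05. In simulated data of that comparison, with 200 changed genes in all, 35 of 100 genes changed by 1 were called.

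The line differences themselves recurred in hosts that share no arrays with the DIOSul tumors. In DIO hosts 8570 genes (43.9%) were called between the lines, of which 6736 were also called in the same direction in DIOSul hosts, 73.5% of the DIOSul and 78.6% of the DIO calls, and 12 in opposite directions. In Con hosts 8808 genes (45.2%) were called and 6965 shared (76.0% and 79.1%), with 4 opposite. In ConSul hosts 6748 (34.6%) were called and 5078 shared (55.4% and 75.3%), with 99 opposite. Across genes the differences correlated with those in DIOSul hosts at 0.929, 0.942 and 0.808, where genes are not independent replicates and all values come from the same 2 lines. Of 2859 called genes with a difference of at least 1 and no overlap, 2805, 2797 and 2484 were called in the same direction in DIO, Con and ConSul hosts. Gm364 held 10.45, 10.73 and 9.93 in those hosts, Dynap -9.43, -9.30 and -9.63, and Hoxd10 5.97, 6.34 and 5.30.

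Genes that differed were also neighbours on chromosomes. Over the 9752 genes above the median signal the median difference was 0.11. It was lowest on chromosome 15 (-0.38) and the X chromosome (-0.32) and highest on chromosome 8 (0.42) and chromosome 6 (0.37). Medians over runs of 51 neighbouring genes, chosen as the highest and lowest of each chromosome and so given with no test, showed where. The end of chromosome 7, from Inpp5a to Tnfrsf23, had a median of -1.32, with 38 of 51 genes lower and 5 higher in E0771. The same 51 genes gave -1.54, -1.39 and -1.55 in DIO, Con and ConSul hosts and -1.42 against metM-Wnt-lung DIOSul tumors. On chromosome 15 a run from Eny2 to Jrk had a median of -1.10 with 43 genes lower, and a run from Parvb to Hdac7 further along had 1.06 with 39 higher. The former kept values from -1.02 to -0.81 in the other hosts, and the latter fell to 0.29 in ConSul hosts. Against metM-Wnt-lung DIOSul tumors these runs had smaller medians, -0.58 and 0.41. On the X chromosome the run from Atp6ap2 to Zdhhc9 had -0.87 and that from Htatsf1 to Vbp1 0.85, with 35 genes lower and 35 higher. Chromosome 8 had no run below 0, and its highest, from Cox4i1 to Sipa1l2, had 0.82 with 36 genes higher.

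**Figure D5:**
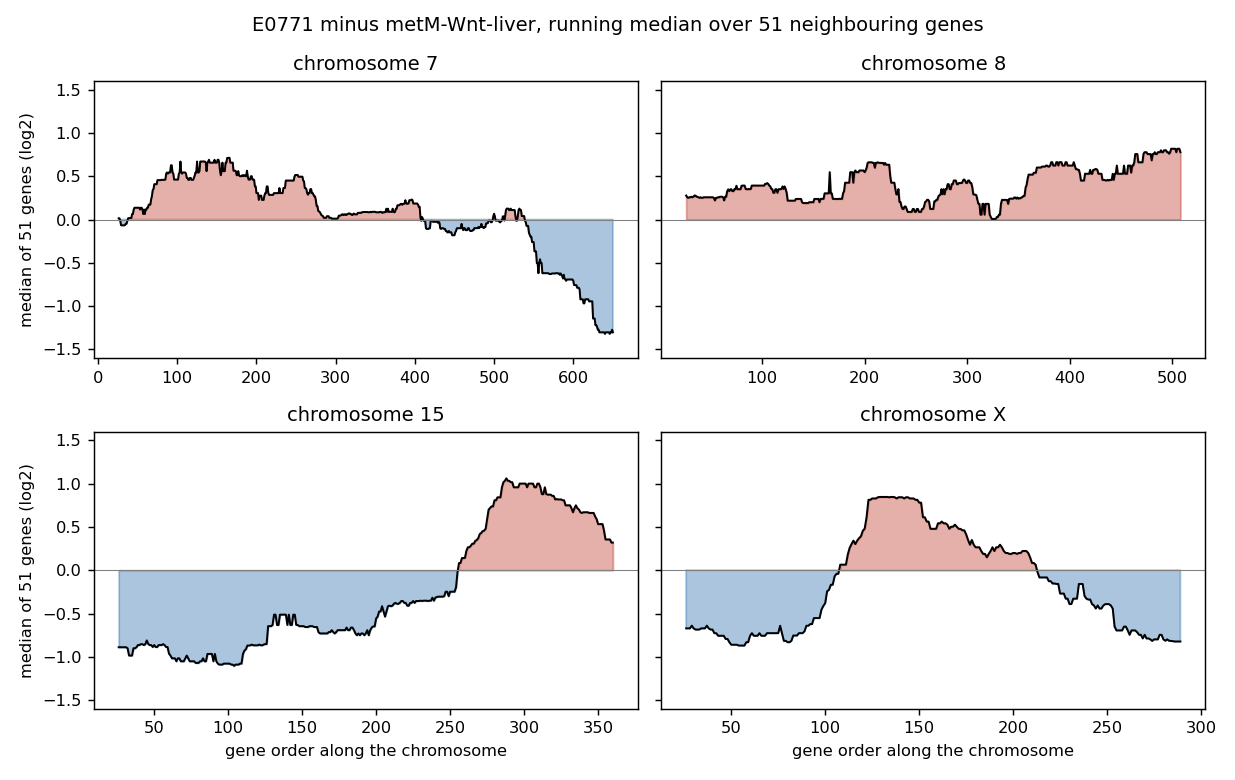
Running median of the line difference (log2) over 51 neighbouring genes above the median signal, by gene order along chromosomes 7, 8, 15 and X, red above and blue below 0. The end of chromosome 7 reaches -1.32, chromosome 15 turns from -1.10 to 1.06, and the X chromosome has a stretch above 0 between stretches below it.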

How the data were processed

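RNA of 79 whole mammary tumors was measured on Clariom S Mouse HT arrays, and the 15 DIOSul arrays of E0771 and metM-Wnt-liver are the subject here. The deposited values are log2 signals that the authors made with SST-RMA in Transcriptome Analysis Console 4.0, and they were used as deposited with no further scaling. The file holds 22206 transcript clusters, of which 19572 carry 1 gene symbol (all found by gene ID in RefSeq, GRCm38.p6) and 2634 none, which were not analysed. Where a gene had several clusters (55 genes), the one with the highest mean was kept, leaving 19505 genes. Arrays have no read depth, and their number limits the precision. SST-RMA brings the arrays to a common scale, so a shift of all genes in one line would not be seen.

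The 53 arrays of both lines in 8 groups entered a single limma model (limma 3.58.1, R 4.3.3), and contrasts gave the line difference in DIOSul hosts and its change against DIO, ConSul and Con hosts. P-values were adjusted by Benjamini-Hochberg over all 19505 genes, with calls at 0.05. P-values measure the spread between tumors of single lines. The changes against DIO, ConSul and Con hosts share the DIOSul arrays. In simulated data all groups shared the same mean per gene, and 200 genes were changed in E0771 DIOSul arrays alone. There 75 of 100 genes changed by 1 and 22 of 100 changed by 0.5 were called in the line contrast. Of 19305 unchanged genes 4 were called. The adjustment depends on how many genes differ, and between the real lines 47.0% were called. These shares therefore do not give the recovery in the real line contrast.

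The members and the 40 gene lists were chosen with earlier results of these data known, so lists are described by counts and medians with no test. Named genes follow a rule: the 10 largest differences per direction among called genes without overlap, the first and up to 3 leading members of each list, up to 5 genes per direction of each change, and genes the study names. Another 27 genes, and a few list members given as single examples, were chosen after their values were seen. Replicate numbers were not used as a pairing of mice, since the sample titles state none. Deviations from the group means correlated in 7 same-numbered pairs at -0.184 to 0.106 (mean -0.03), which cannot exclude a pairing.

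Muscle scores above 2 or keratinocyte scores above 1 marked arrays high in other tissue. These scores, and the adipocyte and leukocyte scores used as covariates, were centred on the mean of each line. Alternatives were other normalizations, covariates, filters, group choices, variance models, array weights, a replicate block, and leaving out arrays. The RNA kit is given differently in the labels and the methods, and the labels place injection 5 weeks after the first randomization. Of the metM-Wnt-lung arrays only those of DIOSul hosts are quoted.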

Additional observations from a re-analysis of the deposited data

Results flagged for a closer look

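Among 368 groups of 7 or 8 arrays checked gene by gene, 26 held a lowest or highest tumor far from the others of its line, where chance marks about 1 in 20 such groups. Some fell on arrays already described as rich in skin or muscle RNA: in E0771 replicate 3 Krt1 was at 15.61, Cdh1 at 8.77, Cldn1 at 8.29, Romo1 at 11.8 and Hoxa10 at 7.78, and in metM-Wnt-liver replicate 4 Krt1 was at 13.68, H2-DMb2 at 12.15 and Car12 at 5.75. In metM-Wnt-liver replicate 7 Flt3 was at 3.74 and Cd300e at 7.32. In E0771 replicate 6 Ncam1 was at 7.42 and Tomm22 at 13.3, and in replicate 2 Gm364 was at 14.43. Other such values fell on arrays that were not marked as rich in that RNA. In metM-Wnt-liver replicate 1 the line's leading gene Dynap was lowest at 10.6, beside Prkg2 at 11.7, Timp1 at 12.43, Acta2 at 15.64, Ccl2 at 12.69 and Irf7 at 13.25. In metM-Wnt-liver replicate 2 Tgfbr2 was at 14.05. E0771 replicate 1 had Ereg at 13.08 and Srxn1 at 13.3, replicate 5 Vwf at 4.07 and Nnat at 11.73, and replicate 7 Adm at 11.26 and Grem1 at 6.78.

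The line difference changed between DIO and DIOSul hosts, by the limma test of the change, at 11 of the named genes. It moved up at Cd300e (3.27), Cd3e (2.89), H2-Ab1 (2.72), H2-Aa (2.71), Cd72 (2.67) and Adgre1 (1.28), and down at Gramd3 (-1.99), Ereg (-1.77), Gsg1 (-1.32), Casp12 (-1.32) and Qrfp (-1.30).

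Between ConSul and DIOSul hosts it changed at 31 named genes, and all of these rest on the 4 metM-Wnt-liver ConSul arrays that stood apart. Changes above 0 were found at the adipocyte genes Adipoq (7.92), Cidec (6.02) and Lpl (5.13), at Nnat (6.30), Sncg (5.23) and Ano1 (4.13), and at Hpgd (3.20) and Ptger4 (1.69) of the prostaglandin pathway. Among immune genes they were Cxcl12 (3.35), Cd3e (2.70), Ltf (2.61), Cd72 (2.16), Irf7 (1.59), Itgam (1.27), H2-Q4 (1.26) and Adgre1 (1.21), and among the others Wnt10a (1.80), Irx2 (1.51) and Prom1 (1.07). Changes below 0 were found at Sh3gl3 (-4.63), Omd (-4.22), Mmp16 (-3.60), Dppa2 (-2.92), Per1 (-2.82), Gramd3 (-1.49), 4930550L24Rik (-1.43), Matn2 (-1.30), Casp12 (-1.14), Wnt11 (-1.06), Tff3 (-1.004) and Qrfp (-0.996).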

How the results depend on the processing

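The line difference in DIOSul hosts gave 9166 calls and stayed between 7071 and 10043 under the other fits of all genes, without the arrays rich in muscle or skin RNA and with array weights at the ends. Asking for a difference of at least 1 left 3699 (1958 higher and 1741 lower). Testing the genes above the median signal alone gave 3649 higher and 2626 lower in E0771. Median centring gave 5360 higher and 3573 lower. Leaving out each of the 15 arrays gave 8724 to 8998 calls, 4587 to 4718 higher and 4137 to 4303 lower.

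The change against DIO hosts (110 calls, 83 above and 27 below 0) depended most on the fit. Array weights gave 786 (429 and 357), a leukocyte covariate 37 (16 above 0), the genes above the median signal 181 (129 and 52), and leaving out the arrays rich in muscle or skin RNA 10 (8 and 2), where fewer arrays remain. Below 0 there were 17 genes with a change of at least 1, 93 with median centring and 46 with the groups compared alone. Single arrays left out gave 73 to 117 calls, 57 to 84 above and 16 to 33 below 0, the lowest without metM-Wnt-liver replicate 1. Leaving out E0771 replicate 3, 5 or 6 or metM-Wnt-liver replicate 7 gave 17 below 0.

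The change against ConSul hosts (1347) fell to 473 (265 and 208) with adipocyte and muscle covariates, 735 (395 and 340) with a leukocyte covariate, 645 (470 and 175) among genes above the median signal and 309 (167 and 142) without arrays rich in muscle or skin RNA. A size of at least 1 left 410 below 0. Single arrays left out gave 1099 to 1384 calls, 585 to 738 above and 514 to 646 below 0. Against Con hosts 0 became 1, below 0, with adipocyte and muscle covariates or median centring, and 0 to 1 with single arrays left out (1 without E0771 replicate 2 or metM-Wnt-liver replicate 5 or 6). Genes silent in one line by the 25th percentile numbered 0 in both directions. With single arrays left out, that rule gave 0 to 1 on in E0771 and 0 to 0 on in metM-Wnt-liver tumors. By the array median, with all arrays, they numbered 6 and 7. The cause of these shifts was not tested.

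With the replicate number as a block the counts were 8882, 94, 1105 and 0, and no named gene called without the block lost its call. Only 1 of 7 pairs exceeded 0.1, and 2 of 7 metM-Wnt-liver arrays correlated best with their own number. So few pairs cannot exclude a pairing, and the main fit used none.

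Of 184 named genes 161 were called and 151 stayed called in every alternative. Without the arrays rich in muscle or skin RNA, calls were lost at Wnt11 (adjusted p = 0.0736), Adgre1 (0.0553), Cxcr1, Slc2a1, H2-Ab1, H2-Aa, Gramd3, Dppa2 and Cxcl9. Acta2 lost its call without metM-Wnt-liver replicate 1 (0.0559) and Cxcl9 without replicate 4 (0.0513). Directions reversed at 6 genes, none of them called there. Without the arrays rich in muscle or skin RNA S100a8 gave -0.36, Krt1 0.11, Alb 0.024 and Top2a 0.082, and with a leukocyte covariate Alb gave 0.32. With single arrays left out Acta1 ranged from -2.12 to 0.12, Krt1 from -1.83 to 0.85, Alb from -0.67 to 0.11, Cd72 from -0.23 to 0.02 and Top2a from -0.166 to 0.0186. Of 40 lists, 11 kept their count within 1.5 times in every alternative. Among chromosome medians the order at the extremes was the same after quantile normalization (chromosome 15 at -0.45, X at -0.39 and chromosome 8 at 0.34).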

Other observations

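Of 14 B cell and lymph node genes 5 were lower and 0 higher in E0771 (35.7% called, beside 47.0% of all genes). The immunoglobulin chain joiner Jchain lay at 3.02 to 4.93 against 5.45 to 7.78 (-2.48 ± 0.502, adjusted p = 4.61e-05 by limma) and the B cell receptor subunit Cd79b at 4.46 to 6.42 against 6.88 to 8.41 (-2.02 ± 0.313). The follicle chemokine Cxcl13 had means of 8.86 and 11.4 (-2.58), with overlapping ranges. Endothelial genes were not uniform: Emcn (5.79 to 8.50 against 8.83 to 10.1, -1.72 ± 0.287) and the growth factor receptor Flt1 (7.37 to 8.59 against 8.86 to 10.4, -1.69 ± 0.277) were lower in E0771 without overlap, beside 4 of 19 genes that were higher. In the dendritic cell list Fscn1, an actin bundler of mature dendritic cells and of migrating carcinoma cells, was higher (13.6 to 14.3 against 11.2 to 12.8, 1.90 ± 0.215) while Batf3, a factor of cross-presenting cells, was lower (-1.15 ± 0.206).

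Of 11 keratins of simple and mammary epithelium 2 were higher in E0771, Krt19 (2.47, adjusted p = 0.0013) and Krt7 (1.63, adjusted p = 3.05e-04), while Krt8 ranged from 6.12 to 11.3 and from 5.40 to 9.34 (2.25 ± 1.195, adjusted p = 0.119). The mean of the list was 2.04 in E0771 replicate 3 and 1.88 in metM-Wnt-liver replicate 4, the arrays rich in skin RNA, and at most 0.65 in the others. Of 18 hormone and ERBB receptors and luminal factors 3 were higher and 6 lower, with the estrogen receptor Esr1 at 4.75 to 6.39 against 6.07 to 6.80 (-0.89 ± 0.221). Of 15 mammary stem and surface antigens 6 were higher and 2 lower. The shares called were 18.2% of the keratins, 50% of the receptors and luminal factors and 53.3% of the stem antigens, beside 47.0% of all genes. Skin keratinocyte genes had 3 of 14 higher and 1 lower, milk genes 2 of 10 higher and 1 lower, and liver and red cell genes 0 of 6 called, as were 0 of 5 genes of X inactivation and the Y chromosome. The shares called of skin keratinocyte (28.6%) and milk genes (30%) were also below that of all genes.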
